A study of Mus musculus with 6 samples.

Results

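Hormone receptor and luminal mammary genes were followed in breast tumors of mice that had received 4T1 cells, a BALB/c mammary carcinoma line. The set holds 9 gene symbols, chosen by name: the receptor genes Esr1, Pgr and Prlr, the luminal transcription factor genes Foxa1, Gata3 and Spdef, and the milk protein genes Csn2, Csn3 and Wap. Exact matching of symbols found 6 of the 9 among the 16763 genes of the deposited table. Pgr, Csn2 and Wap had no row there, and no level is given for them. Every row of the table held at least 1 count in all, so the table lists detected genes.

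RNA came from tumors of mice treated with DMDD liposome, in which DMDD, named by its abbreviation only, is carried in lipid vesicles, and from tumors of the untreated model group. Each group had 3 libraries of 13037500 to 15616840 counts, and all 6 tumors came from BALB/c mice labelled male. The sample descriptions call the animals rats, whereas the organism, the strain and the gene symbols are those of mouse. The labels give neither dose, timing nor injection site, nor the animal behind each library. The p-values therefore rest on the spread among libraries, part of which may be technical. The tumors carried abundant transcripts of the simple epithelial keratins and of Epcam, an epithelial adhesion molecule: Krt8 averaged 1006 ± 109 CPM in DMDD liposome tumors and 1425 ± 401 CPM in model tumors (SD, n = 3 each). CPM is edgeR's measure of a gene's reads relative to the total of its library, scaled by TMM factors.

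In the mammary gland, estrogen acts through the nuclear receptor encoded by Esr1, which switches on Pgr, the progesterone receptor gene, in hormone-sensing luminal cells. The factors encoded by Gata3 and Foxa1 are needed for the luminal lineage, and in human breast cancer cells they open or mark the sites at which the estrogen receptor binds. Prolactin acts through the receptor encoded by Prlr and the kinase JAK2, which activates STAT5 and with it the genes of the caseins and whey acidic protein in milk-producing cells. The 4T1 line is widely used as a model of breast cancer that does not depend on these hormones.

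Promoter sequences are shown for the 3 members that could be tested, since these carry the comparison between the groups. They come from RefSeq on build GRCm38.p6, whereas the submitters' processing notes name mm9 for the counts. Each window runs from 250 bases before to 50 bases after a transcription start, and it is given 5′ to 3′ on the strand of the gene. Capitals mark matches, on either strand, to TTCNNNGAA (the palindrome STAT5 binds), GGTCA (a single arm of the estrogen response element), TGTTTAC (forkhead) or GATAA (GATA). The Esr1 windows, at chr10:4611739-4612038 and chr10:4709908-4710207 on the plus strand, belong to separate starts of the gene, and the counts per gene do not separate them. The Foxa1 window lies at chr12:57546062-57546361 and the Gata3 window at chr2:9878551-9878850, both on the minus strand.
Esr1, first window: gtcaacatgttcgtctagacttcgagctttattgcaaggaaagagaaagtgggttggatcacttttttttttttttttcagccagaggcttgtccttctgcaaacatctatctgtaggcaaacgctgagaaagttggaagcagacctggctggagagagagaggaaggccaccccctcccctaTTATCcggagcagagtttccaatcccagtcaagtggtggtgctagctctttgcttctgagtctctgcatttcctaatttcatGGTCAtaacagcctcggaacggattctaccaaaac
Esr1, second window: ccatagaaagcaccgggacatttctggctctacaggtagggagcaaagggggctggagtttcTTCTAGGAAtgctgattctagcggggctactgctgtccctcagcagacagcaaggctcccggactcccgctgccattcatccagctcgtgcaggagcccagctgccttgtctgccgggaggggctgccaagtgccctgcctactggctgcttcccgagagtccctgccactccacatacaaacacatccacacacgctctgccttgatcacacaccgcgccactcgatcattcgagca
Foxa1: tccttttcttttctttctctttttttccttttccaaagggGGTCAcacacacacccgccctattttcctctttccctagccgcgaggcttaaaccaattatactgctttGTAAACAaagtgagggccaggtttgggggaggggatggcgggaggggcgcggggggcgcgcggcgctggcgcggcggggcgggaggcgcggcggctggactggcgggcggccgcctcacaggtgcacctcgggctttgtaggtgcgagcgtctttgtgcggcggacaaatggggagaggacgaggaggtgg
Gata3: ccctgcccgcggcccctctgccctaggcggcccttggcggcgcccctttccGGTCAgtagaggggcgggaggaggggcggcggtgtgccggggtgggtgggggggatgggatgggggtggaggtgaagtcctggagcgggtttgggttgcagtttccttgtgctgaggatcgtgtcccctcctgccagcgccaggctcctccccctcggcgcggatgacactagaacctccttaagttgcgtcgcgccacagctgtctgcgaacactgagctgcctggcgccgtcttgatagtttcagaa

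The whole estrogen response element, GGTCANNNTGACC, had no match in these 4 windows and a match in 0.07% of the 32851 promoter windows of the same length in the RefSeq table. The single arm GGTCA was in the first Esr1 window, the Foxa1 window and the Gata3 window, and in 40.5% of all windows. The Foxa1 window held 1 forkhead match, which 3.65% of all windows had. GATAA was in the first Esr1 window (25.4% of all windows), and the STAT5 palindrome in the second Esr1 window (8.3% of all windows). A match describes these letters only and says nothing on binding in these tumors.

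Per gene length, Gata3 was by far the most abundant member and the only one in the upper part of the transcriptome. The levels here are the authors' FPKM, which divide reads by gene length and by library total. Gata3 averaged 29.5 ± 3.54 FPKM in DMDD liposome tumors and 38.0 ± 18.8 FPKM in model tumors (SD, n = 3 each), above 86.8% of the genes in the table. Esr1 came next, at 4.01 ± 0.742 FPKM in DMDD liposome tumors and 3.20 ± 0.683 FPKM in model tumors, above 43.7% of genes. Foxa1 followed with 0.918 ± 0.705 FPKM in DMDD liposome tumors and 0.355 ± 0.213 FPKM in model tumors. Csn3 averaged 0.574 ± 0.584 FPKM in DMDD liposome tumors and 0.127 ± 0.111 FPKM in model tumors. Gata3 lay above Esr1, and Esr1 above Foxa1, in all 6 libraries with no overlap of their ranges. Foxa1 was above Csn3 in 5 of 6 libraries and their ranges overlapped, so their order is not separated by the spread. Spdef and Prlr stood last, with means of 0.0230 and 0.0147 FPKM over the 6 libraries, and neither was consistently above the other (Spdef was higher in 3 of 6 libraries).

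**Figure D1:**
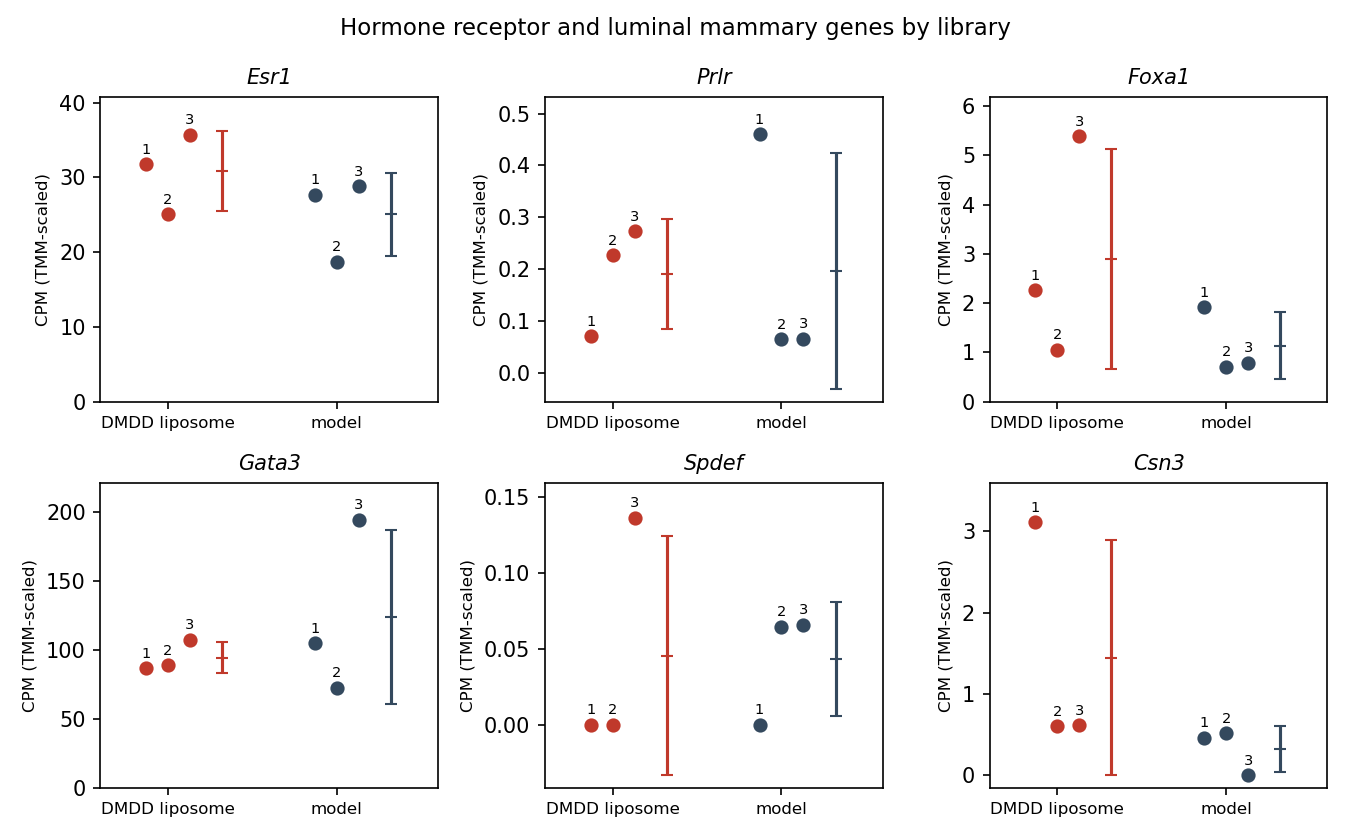
CPM of the 6 members with a row in the table, by library, in DMDD liposome (red) and model (dark) tumors; points are libraries, numbered by replicate, and bars beside them are the mean ± SD of 3 libraries. Foxa1 and Csn3 each have a single high DMDD liposome library (5.38 and 3.12 CPM) and Gata3 a single high model library (194 CPM), while the Esr1 groups overlap.

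No member passed the test for a difference between DMDD liposome and model tumors. The counts were compared by edgeR's quasi-likelihood test, two-sided, with Benjamini-Hochberg adjustment over the 12891 genes that passed the filter on low counts. Of the 9 members, 3 passed that filter, and 0 of these 3 had an adjusted p under 0.05. The background was likewise 0 of 12891 genes called (0%), while 986 genes (7.65%) had an unadjusted p under 0.05 and DESeq2 called 59 of 14461 genes (0.408%). None of the 3 members was among either of those. The groups overlapped for each of the 3, whereas 1659 tested genes had groups without overlap (12.9%, made up of 7.21% higher and 5.66% lower in DMDD liposome tumors). The log2 fold change was positive for Esr1 and Foxa1 and negative for Gata3, and it was positive for 51.2% of all tested genes. The median log2 fold change over all tested genes was 0.01. TMM scaling places the bulk of genes near 0, so this median cannot show whether a general shift was present. In bulk tumor RNA, fewer cells of a type and less RNA per cell cannot be told apart.

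Esr1, which encodes estrogen receptor alpha, was detected in every tumor. It had 449, 332 and 524 counts in the DMDD liposome libraries (replicates 1 to 3), against 361, 290 and 439 counts in the model libraries. In CPM this was 31.8, 25.1 and 35.7 in DMDD liposome tumors, against 27.7, 18.7 and 28.8 in model tumors. DMDD liposome replicate 2 lay below 2 of the 3 model libraries, so the groups overlapped, and the lowest library was model replicate 2. The log2 fold change of DMDD liposome over model was 0.30 ± 0.21 (SE; 1.23-fold, 95% interval 0.882 to 1.72; edgeR adjusted p = 0.758). The 2 libraries with the lowest Esr1, DMDD liposome replicate 2 and model replicate 2, had the highest sums of the 10 fibroblast markers, at 10742 and 7452 CPM, beside 3921 to 4481 CPM in the other libraries. Of these sums, 10308 and 7034 CPM came from the collagen genes Col1a1, Col1a2 and Col3a1, and the other 7 markers summed to 434 and 418 CPM there, beside 277 to 338 CPM in the other libraries. Pdgfra, a receptor gene of fibroblasts, had another order, with its highest level of 164 CPM in DMDD liposome replicate 3 and its lowest of 106 CPM in model replicate 2. Pdgfra, Dcn, Lum and Col1a1, the defining fibroblast markers, were present in every library, and the part of such cells in the Esr1 level was not tested.

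Foxa1, a forkhead factor that opens chromatin at estrogen receptor sites, showed the largest fold change of the tested members, on few reads. It had 32, 14 and 79 counts in the DMDD liposome libraries, against 25, 11 and 12 counts in the model libraries. In CPM the DMDD liposome tumors measured 2.27, 1.06 and 5.38, against 1.92, 0.709 and 0.788 in the model tumors. DMDD liposome replicate 3 stood far above the rest, and DMDD liposome replicate 2 lay below model replicate 1. The log2 fold change was 1.36 ± 0.67 (SE; 2.58-fold, 95% interval 0.869 to 7.63; edgeR adjusted p = 0.666), and it became 0.56 without DMDD liposome replicate 3. It was 1.95 without model replicate 1, with an edgeR adjusted p of 0.270. In the authors' deposited table, which gives model over DMDD liposome, Foxa1 stood at a log2 fold change of -1.35 with an adjusted p of 0.647.

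DMDD liposome replicates 3 and 1, the libraries with the most Foxa1, also had the highest sums of the skeletal muscle markers. The 9 muscle markers with a row, of 10 listed, summed to 132, 11.9 and 256 CPM in the DMDD liposome libraries, against 34.3, 33.0 and 33.0 CPM in the model libraries. Ckm, the muscle creatine kinase gene, had 210, 4 and 767 counts in the DMDD liposome libraries, against 10, 9 and 4 in the model libraries. Myh4, a fast muscle myosin gene, was at 0 in DMDD liposome replicate 2 and in model replicate 2. Of the 7 markers tested, 5 were highest in DMDD liposome replicate 3 and 1 in DMDD liposome replicate 1. Myh1, a muscle myosin gene chosen after its values were seen, was highest in model replicate 3. Its log2 CPM minus its mean over all libraries was 1.81 there, 0.82 in DMDD liposome replicate 3 and -0.42 in DMDD liposome replicate 1. Muscle markers were not alone in this order. The 10 macrophage markers also had their highest sums in DMDD liposome replicates 1 and 3, at 3964 and 3220 CPM, beside 1527 to 2932 CPM elsewhere. Cd8a, a T cell gene, measured 32.6, 4.99 and 24.9 CPM in DMDD liposome tumors, against 9.28, 5.61 and 11.1 CPM in model tumors. The sum of the T cell and innate lymphoid list was instead highest in DMDD liposome replicate 2, at 238 CPM. The part of muscle or of these other cells in the Foxa1 level was not tested.

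Gata3, a zinc finger factor of the luminal lineage that T helper cells and innate lymphoid cells also need, was the best measured member. It had 1222, 1177 and 1574 counts in the DMDD liposome libraries, against 1367, 1125 and 2959 counts in the model libraries. In CPM this was 86.6, 88.9 and 107 in DMDD liposome tumors, against 105, 72.5 and 194 in model tumors. A single library, model replicate 3, stood apart, and the other 5 lay between 72.5 and 107 CPM with the groups mixed. The log2 fold change was -0.39 ± 0.33 (SE; 0.761-fold, 95% interval 0.449 to 1.29; edgeR adjusted p = 0.800). Without model replicate 3 it turned to 0.08 (edgeR adjusted p = 0.977), so the sign of the difference rests on that library.

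T cell markers were not highest in the library with the most Gata3. Cd3e, a subunit of the T cell receptor complex, had 99, 30 and 112 counts in the DMDD liposome libraries, against 31, 32 and 70 in the model libraries. The 13 measured genes of the T cell and innate lymphoid list, of 15 listed, summed to between 185 and 238 CPM in DMDD liposome tumors and between 170 and 186 CPM in model tumors. Thy1, which fibroblasts also use, was the most abundant of them. Model replicate 3 did have the most Il1rl1, the interleukin-33 receptor gene of mast cells and innate lymphoid cells, with 249 counts against 34 to 113 in the other 5 libraries. Il13, a cytokine gene of the same cells, had 17 counts there and 0 to 5 in the others. Both were chosen here after their values were seen. Rora and Il7r, also of this list and likewise chosen, had another order. The log2 CPM of Rora minus its mean over all libraries was highest in DMDD liposome replicate 2, at 0.58, beside 0.24 in model replicate 3. For Il7r it was highest in DMDD liposome replicate 3, at 0.41, beside -0.0094 in model replicate 3. Mast cell markers as a set did not single out that library. The 10 mast cell and basophil genes summed to 26.4, 37.2 and 45.7 CPM in DMDD liposome tumors, against 44.7, 139 and 132 CPM in model tumors. Of the 8 tested, 5 were highest in model replicate 2, the library with the lowest Gata3, and 2 in model replicate 3. Those 2 were Hdc, with 500 counts there against 36 to 237 in the other 5 libraries, and Gata2, chosen after its values were seen. Mcpt4 and Cpa3, mast cell protease genes, were present in every library. The part of these cells in the Gata3 level was not tested. In the GENCODE M21 annotation 4930412O13Rik and 9230102O04Rik, which have rows of their own in the table, overlap the Gata3 gene. The labels do not say whether the counting used strand, so reads from the shared stretches may be split. In the same annotation Gm21973 overlaps Prlr on the same strand, and the antisense gene 1700066N21Rik overlaps Csn3. Neither has a row of its own. Whether their reads entered the low counts of Prlr and Csn3 was not tested.

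**Figure D2:**
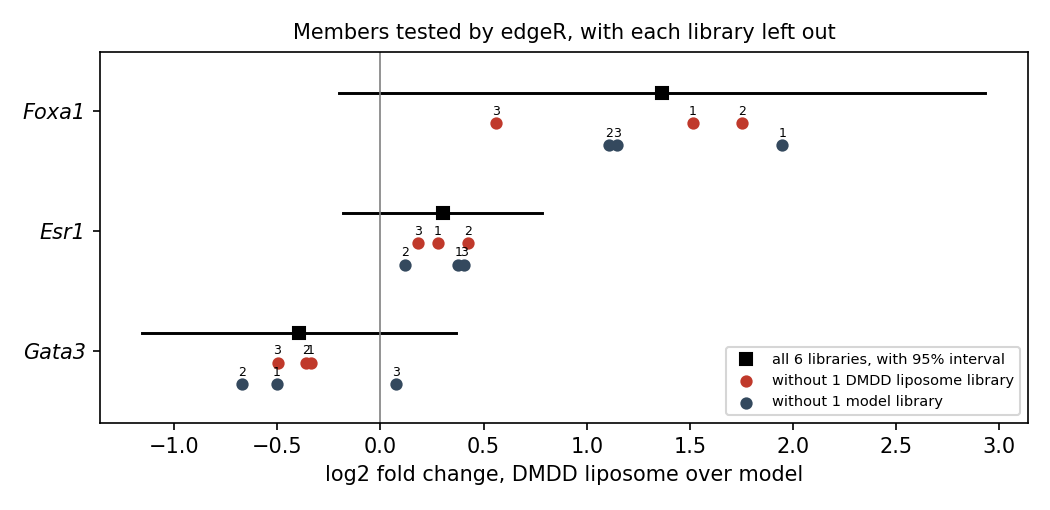
Log2 fold change (DMDD liposome over model, edgeR) of Foxa1, Esr1 and Gata3; squares use all 6 libraries, with their 95% interval, and small points leave out the library whose replicate number stands above them. All 3 intervals cross 0, Foxa1 stands at 0.56 without DMDD liposome replicate 3, and Gata3 changes sign without model replicate 3.

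Prlr, the prolactin receptor gene, and Spdef, an ETS factor gene of secretory epithelium, were at the edge of detection. Prlr had 1, 3 and 4 counts in the DMDD liposome libraries, against 6, 1 and 1 counts in the model libraries. Both groups summed to 8 counts, and an exact permutation test over the 6 libraries gave p = 0.8 (two-sided; the smallest p that 20 splits allow is 0.1). Spdef had 0, 0 and 2 counts in the DMDD liposome libraries, against 0, 1 and 1 in the model libraries, and no fold is given. At these depths 3 counts stand for 0.193 to 0.230 CPM, so that differences below that level were not detectable.

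Csn3, which encodes kappa-casein, the protein that keeps casein micelles apart in milk, was the single member whose groups did not overlap in CPM. It had 44, 8 and 9 counts in the DMDD liposome libraries, against 6, 8 and 0 counts in the model libraries. In CPM this was 3.12, 0.604 and 0.613 in DMDD liposome tumors, against 0.460, 0.516 and 0 in model tumors. One library, DMDD liposome replicate 1, held 44 of the group's 61 counts, and the 8 and 9 counts of the other DMDD liposome libraries were close to the 6 and 8 counts of model replicates 1 and 2. DMDD liposome replicate 2 and model replicate 2 had the same 8 counts, so their CPM differed only through library size. The filter on low counts left Csn3 out of the edgeR test. The difference of mean log2 CPM, DMDD liposome minus model with a prior count of 2, was 1.68, with an exact two-sided permutation p of 0.1, the smallest that 3 against 3 libraries can give. It was 0.98 without DMDD liposome replicate 1 and 0.96 without model replicate 3. A lack of overlap was found for 1961 of the 16763 genes of the table (11.7%), of which 1104 (6.59%) were higher in DMDD liposome tumors. The authors' deposited table lists Csn3 at -2.15 on the log2 scale (model over DMDD liposome), with an adjusted p of 0.637.

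Other milk protein genes showed no such counts. Lalba, the alpha-lactalbumin gene, had 0, 3 and 0 counts in the DMDD liposome libraries, against 2, 1 and 0 in the model libraries. Csn1s2b and Glycam1 had at most 1 count in any library, and Csn1s1, Csn1s2a and Lpo had no row in the table. The milk secretion genes that were well measured are also used outside the mammary gland. Mfge8, which encodes a milk fat globule protein that bridges dying cells to phagocytes, averaged 278 ± 8.39 CPM in DMDD liposome tumors and 300.4 ± 7.96 CPM in model tumors, a log2 fold change of -0.11 ± 0.09. Plin2, a lipid droplet coat protein gene, averaged 200.1 ± 36.4 CPM in DMDD liposome tumors and 148 ± 18.7 CPM in model tumors (log2 fold change 0.43 ± 0.16, edgeR adjusted p = 0.626). Xdh, the xanthine oxidoreductase gene, averaged 197 ± 104 CPM in DMDD liposome tumors and 183 ± 48.6 CPM in model tumors. Of the 14 listed genes 5 were tested, 4 with a positive and 1 with a negative log2 fold change, and 0 were called.

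Most genes listed for prolactin and STAT5 signaling passed the filter on low counts, which Prlr did not. Among them are Jak2, Stat5a and Stat5b, other receptor genes, and feedback and phosphatase genes. All 14 genes listed for prolactin and STAT5 signaling had a row and 13 were tested, with 0 called, 8 positive, 5 negative and a median log2 fold change of 0.02 (-0.10 to 0.11 without 1 library). Elf5, the STAT5-linked factor of the milk-producing lineage, had 1 count in model replicate 1 and 0 in the other 5 libraries. Ghr, the growth hormone receptor gene, which uses the same kinase, measured 105, 58.2 and 151 CPM in DMDD liposome tumors, against 126, 51.9 and 56.0 CPM in model tumors. Stat5a and Stat5b, the genes of the transcription factors themselves, had log2 fold changes of -0.14 and 0.01. Tnfrsf11a, the gene of RANK, through which progesterone drives mammary growth, averaged 13.5 ± 2.16 CPM in DMDD liposome tumors and 8.06 ± 2.70 CPM in model tumors. Its log2 fold change of 0.75 ± 0.27 had an edgeR adjusted p of 0.626, and its groups did not overlap (7.21% of all tested genes were higher without overlap).

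Of the 13 tested genes of the prolactin and STAT5 list, 6 had their highest library in model replicate 3 (46.2%), as Gata3 did, beside 2483 of all 12891 tested genes (19.3%). Socs3, whose product restrains JAK kinases, measured 113, 151 and 150 CPM in DMDD liposome tumors, against 156, 127 and 288 CPM in model tumors (log2 fold change -0.46 ± 0.30, edgeR adjusted p = 0.736). Cish, another STAT5 feedback gene, chosen here after its values were seen, measured 31.6, 18.3 and 57.1 CPM in DMDD liposome tumors, against 24.5, 15.3 and 84.3 CPM in model tumors. Jak2 itself, likewise chosen after its values were seen, reached 694 CPM in model replicate 3 and lay between 289 and 459 CPM in the other 5 libraries. Socs1, also a feedback gene and likewise chosen after its values were seen, was highest there too. Its log2 CPM minus its mean over all libraries was 1.29 in model replicate 3 and at most 0.38 elsewhere. Not every feedback gene of the list was highest there. Socs2, a growth hormone and prolactin feedback gene, measured 24.3, 13.8 and 24.1 CPM in DMDD liposome tumors, against 14.7, 14.8 and 17.7 CPM in model tumors. The phosphatase genes Ptpn1 and Ptpn6, also chosen after their values were seen, had their highest library among the DMDD liposome tumors. Ptpn1 averaged 124 ± 8.04 CPM in DMDD liposome tumors and 114 ± 2.53 CPM in model tumors, and Ptpn6 was lowest in model replicate 3, at 93.3 CPM.

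**Figure D3:**
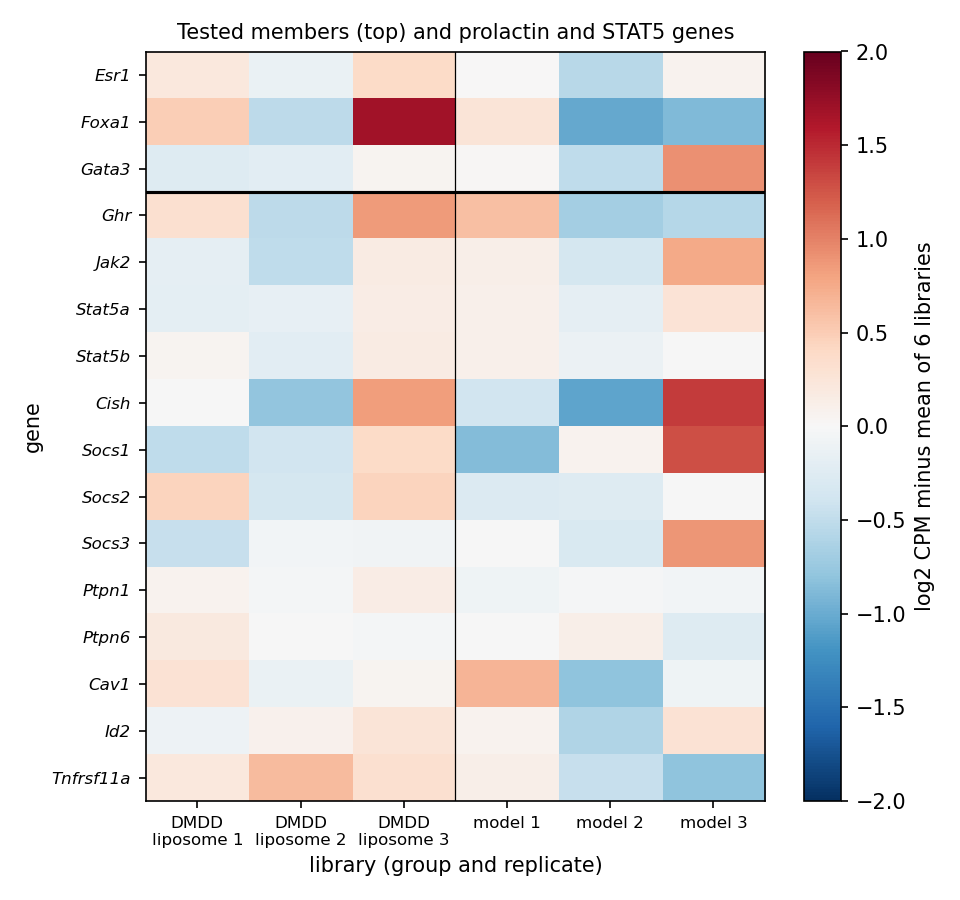
Log2 CPM minus the mean of the 6 libraries for the 3 tested members (top) and the 13 tested prolactin and STAT5 signaling genes (below), with libraries in columns. Model replicate 3 is the highest library for Gata3 and for 6 of the 13 genes, and DMDD liposome replicate 3 is the highest for Foxa1.

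Estrogen receptor targets had log2 fold changes of either sign, none past the threshold. All 16 listed genes had a row and 12 were tested, with 0 called, 5 positive, 7 negative and a median log2 fold change of -0.17. That median was 0.02 without DMDD liposome replicate 1, -0.04 without model replicate 3 and -0.34 without DMDD liposome replicate 2, so its direction rests on single libraries. Greb1 and Tff1, strongly estrogen-dependent in human breast cancer cells, had at most 2 and 3 counts in any library. Igfbp4, which binds insulin-like growth factors, averaged 1970 ± 51.6 CPM in DMDD liposome tumors and 1410 ± 238 CPM in model tumors, and its groups did not overlap (log2 fold change 0.48 ± 0.15, edgeR adjusted p = 0.626). Ctsd, the cathepsin D gene, which macrophages also use, averaged 599 ± 84.0 CPM in DMDD liposome tumors and 439 ± 52.2 CPM in model tumors (log2 fold change 0.45 ± 0.15, edgeR adjusted p = 0.626). The groups did not overlap for Ctsd either, and 7.21% of all tested genes were higher without overlap. The 10 macrophage markers summed to 3964, 2932 and 3220 CPM in DMDD liposome tumors, against 2850, 2230 and 1527 CPM in model tumors, with Lyz2, Csf1r and Adgre1 present in every library, and their part in the Ctsd level was not tested. Wnt4, a signal that progesterone induces in luminal cells, had few counts and its groups overlapped. The counts were 3, 15 and 5 in the DMDD liposome libraries, against 14, 41 and 39 in the model libraries. Wnt4 averaged 0.562 ± 0.499 CPM in DMDD liposome tumors and 2.09 ± 0.884 CPM in model tumors (log2 fold change -1.90 ± 0.67, edgeR adjusted p = 0.626). With Xbp1, a secretory pathway factor gene at a log2 fold change of 0.41, these were the 4 genes of the list with an unadjusted p under 0.05, 3 higher (4.34% of all tested genes were so) and 1 lower (3.31%).

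Coregulators of the estrogen receptor and the other nuclear receptors had small log2 fold changes. All 12 coregulator genes were tested, with 0 called and log2 fold changes between -0.18 and 0.43. Ncoa3, a coactivator gene, had the largest, 0.43 ± 0.18, from 73.9 ± 6.56 CPM in DMDD liposome tumors and 54.8 ± 13.3 CPM in model tumors (edgeR adjusted p = 0.641). Nrip1, a corepressor that estrogen induces, stood at 0.30 ± 0.19 and Ep300, a histone acetyltransferase gene, at -0.13 ± 0.09. Of 15 other nuclear receptor genes 10 were tested, with 0 called and a median log2 fold change of -0.0014. Per length, Esr1 with a mean of 3.61 FPKM over the 6 libraries lay below Nr3c1, the glucocorticoid receptor gene (10.3 FPKM), and Rarg, a retinoic acid receptor gene (40.1 FPKM). Esr2, the gene of estrogen receptor beta, had at most 5 counts in any library.

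Luminal keratin and adhesion genes mostly had negative log2 fold changes, none past the threshold. Of 20 listed luminal genes 16 were tested, with 0 called, 3 positive, 13 negative and a median log2 fold change of -0.58. Leaving out 1 library gave medians of -0.69 to -0.45, with -0.46 without model replicate 2. Krt8, Krt18 and Epcam, the most abundant, stood at -0.50 ± 0.22, -0.36 ± 0.20 and -0.63 ± 0.28 (edgeR adjusted p of 0.644, 0.700 and 0.644). Unadjusted p under 0.05 was reached by 5 of the 16, all negative, against 3.31% of all tested genes in that direction: Prom1, Sox9, Cldn3, Cldn7 and Esrp1, chosen here after their values were seen. Ehf, an epithelial ETS factor gene that the filter on low counts left out, had 0, 0 and 1 counts in the DMDD liposome libraries, against 9, 26 and 45 in the model libraries, and DESeq2 called it (adjusted p = 0.0136). Groups did not overlap for 5 of the 16, all lower in DMDD liposome tumors, beside 5.66% of all tested genes in that direction. The highest library was model replicate 2 for 9 of the 16 (56.2%), beside 19.6% of all tested genes. The 11 measured skin markers, of 14 listed, summed to 248 CPM in model replicate 2, against 10.04 to 16.8 CPM in the other 5 libraries. Krt1 and Flg, genes of the outer epidermis, were at 0 in those 5 libraries, and the part of skin in the keratin levels was not tested. Esr1 and Foxa1 had their lowest library, and Gata3 too, in model replicate 2.

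Basal and myoepithelial markers had log2 fold changes of either sign. Of 13 listed genes 11 were tested, with 0 called, 7 positive, 4 negative and a median log2 fold change of 0.19. The integrin genes Itgb4 and Itga6, of epithelial anchoring, stood at -0.71 ± 0.17 and -0.49 ± 0.09, and the basal keratin gene Krt14 at -1.69 ± 0.50 (edgeR adjusted p of 0.626, 0.603 and 0.626). With Krt17, another basal keratin gene, these were the 4 lower genes with an unadjusted p under 0.05 (3.31% of all tested genes were so). The contractile genes Acta2, Cnn1 and Mylk, which smooth muscle also uses, were the 3 higher ones (4.34% of all tested genes), at 1.21 ± 0.48, 1.64 ± 0.55 and 0.77 ± 0.24 (edgeR adjusted p of 0.630, 0.626 and 0.626). Krt17 and these 3 were chosen after their values were seen. Groups did not overlap for 2 higher genes, Acta2 and Mylk (7.21% of all tested genes were so), and 2 lower ones, Itga6 and Itgb4 (5.66%). The list's median turned to -0.35 without DMDD liposome replicate 2, the library with the highest sum of the fibroblast markers. That library was also the highest for 6 of the 11 tested genes of this list (54.5%), beside 18.7% of all tested genes.

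Markers of the other cell types a tumor can hold were called in 0 cases by edgeR on all 6 libraries. DESeq2 called Mcpt4 and Hdc, of mast cells and basophils, and Dsg3, of skin, all lower, and edgeR called Mcpt4 without model replicate 1 (log2 fold change -4.31, adjusted p = 0.0298). Their median log2 fold changes were 0.46 for 11 tested T cell and innate lymphoid genes, -2.11 for 8 mast cell and basophil genes, 2.03 for 6 fat cell genes and 0.22 for 10 fibroblast genes. They were -0.96 for 3 skin genes, 2.89 for 7 skeletal muscle genes, 0.48 for 10 macrophage genes and 0.44 for 10 endothelial genes. Single libraries moved several of these medians. Without DMDD liposome replicate 2 the fat cell median was 0.42 and the fibroblast median turned to -0.38. The skin median was -0.01 without model replicate 2, and the mast cell median -3.64 without DMDD liposome replicate 3. Leaving out 1 library gave 0.26 to 0.80 for T cell and innate lymphoid genes, 2.23 to 4.02 for muscle, 0.26 to 0.67 for macrophage and 0.24 to 0.82 for endothelial genes.

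**Figure D4:**
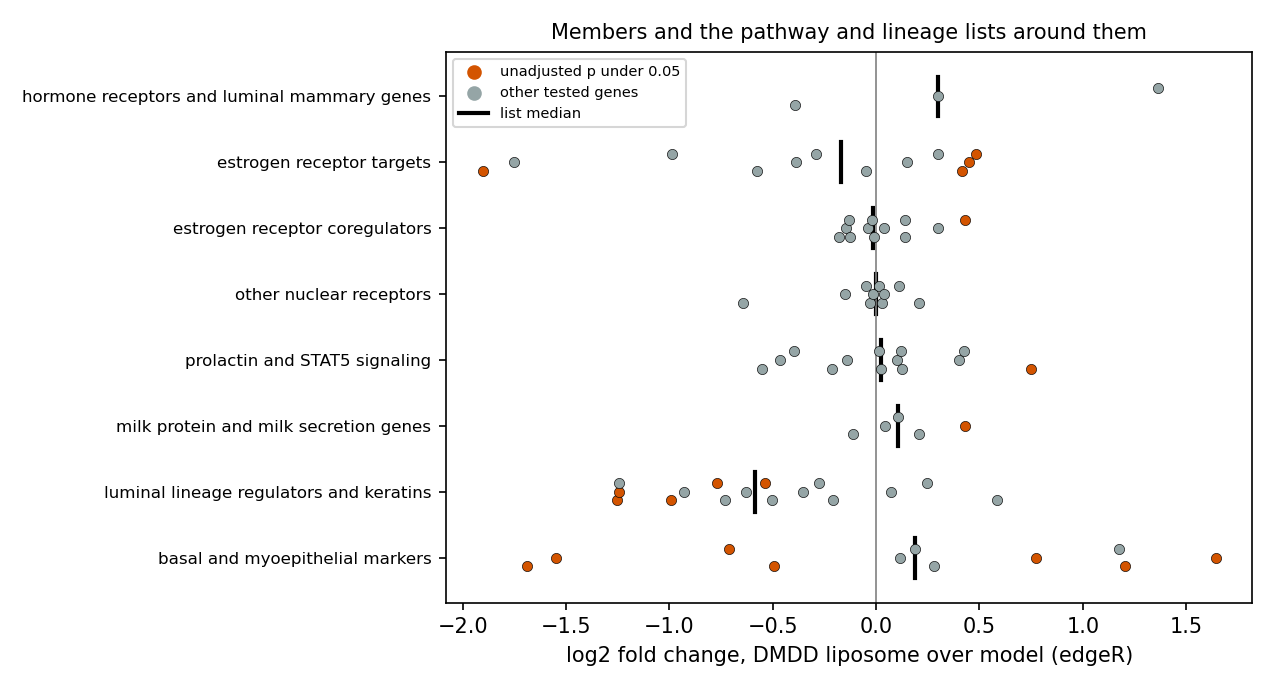
Log2 fold change (DMDD liposome over model, edgeR) of each tested gene in the member list and the 7 pathway and lineage lists, with orange for an unadjusted p under 0.05 and a black bar at each list median. The luminal list lies to the left, with a median of -0.58, whereas the medians of the coregulators and the other nuclear receptors lie near 0; no gene passed the adjusted threshold.

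The genes whose profile over the 6 libraries was closest to each tested member were found by the root mean square difference of centred log2 CPM, among 12205 genes with a mean of at least 1 CPM. For Gata3 these were P2ry6, Vim and Arntl2, with differences of 0.06, 0.12 and 0.13 on the log2 scale. P2ry6, a nucleotide receptor gene, measured 47.0, 45.4 and 55.3 CPM in DMDD liposome tumors, against 50.9, 39.4 and 95.8 CPM in model tumors, so that model replicate 3 was again highest. Vim, the vimentin gene, likewise had its highest level there, at 4253 CPM, against 1956 to 2694 CPM in the other 5 libraries. For Esr1 the nearest were Zfp759, Rybp and Zfp60, with differences of 0.07, 0.08 and 0.09. For Foxa1 the nearest, Il12rb2, Ror1 and C4b, were less close, at 0.35, 0.37 and 0.37. These are descriptions of 6 libraries, which share their tumors and depths.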

How the data were processed

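Per the labels' protocols, tumor RNA was isolated with Trizol and libraries were prepared with an NEBNext Ultra kit. Groups and replicate numbers come from the sample descriptions. The deposited table gives raw read counts by gene symbol, per the file headers. It also holds the authors' FPKM, a normalized signal that the authors made by dividing counts by a size factor per library (not used here), and the authors' log2 fold changes with p-values. DESeq2 and build mm9 are named in the submitters' processing notes. The aligner, the counter and the strand setting are not stated in the labels.

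The 6 libraries were fitted together by edgeR 4.0.16 under R 4.3.3 (filterByExpr with a minimum count of 10 and a minimum total of 15, TMM, quasi-likelihood, Benjamini-Hochberg, threshold 0.05). Standard errors come from the F statistic. Log2 CPM used a prior count of 2. Prlr and Csn3, outside the filter, got an exact permutation test. Alternatives were DESeq2 1.42.0, limma-voom 3.58.1, other size factors, no filter, a replicate block, a threshold of 0.01 and leaving out each library; the tests were first run on simulated counts. The members, the 15 lists around them and the tests were chosen with earlier results of these data known. The rule for naming genes took all members, the 3 nearest profiles of each tested member, and of each list the 3 with the smallest p (pathways) or the highest mean count (markers and milk genes); those of the marker lists are named where they bear on a member. A gene that this rule takes is not reported here. Counting error is the only error that the 3-count floor covers.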

Additional observations from a re-analysis of the deposited data

How the results depend on the processing

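No member passed an adjusted p of 0.05 under any alternative run (0 called in each). Over all genes, edgeR called 0 with DESeq2 size factors, without the filter on low counts, at a threshold of 0.01, and with the replicate block, and limma-voom with quality weights called 0, but DESeq2's Wald test called 59. Without 1 library, edgeR called 0 to 112 genes, the 112 without model replicate 1. Apart from leaving out a library, the log2 fold change ran from 0.29 to 0.38 for Esr1, from 1.20 to 1.52 for Foxa1 and from -0.41 to -0.28 for Gata3. Leaving out a library gave 0.12 to 0.42 for Esr1, 0.56 to 1.95 for Foxa1, and -0.67 to 0.077 for Gata3, whose sign turned without model replicate 3. For Prlr the difference of 0.11 was -0.15 to 0.63 without 1 library, -0.013 without the filter and -0.034 in DESeq2, so it has no direction at 8 counts a group. Csn3 gave 0.96 to 2.08 without 1 library. Equal replicate numbers did not pair the libraries by the criterion used: correlations of same-numbered deviations were 0.09 to 0.12, where more than 0.1 was required of each, although all 6 libraries correlated best with their own number. In the lists around the members, DESeq2 called Cldn7, Ehf, Itga6, Itgb4, Mcpt4, Hdc and Dsg3, and edgeR without model replicate 1 called Cldn7, Ehf, Krt14 and Mcpt4, all lower. The other alternatives called 0 genes of these lists. The fibroblast median of 0.22 was -0.11 in limma-voom. Low counts limit Prlr, Spdef, Csn3 and Foxa1.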
